A study of Homo sapiens with 20 samples.

Results

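Breast cancer cells that had been held without hormone were compared after 24 h of estradiol (E2) and after 24 h of its vehicle, on 8 of the 20 arrays of a study of the SUM44 line. SUM44 is a single established human cell line derived from invasive lobular carcinoma, an estrogen receptor positive breast cancer. The arrays were chosen by their titles, which name E2 at 24 h (replicates A to D) or vehicle at 24 h (replicates A to D). The treatment field of the E2 arrays reads baseline, against their titles and descriptions, and the titles were followed. The E2 24 h group had received 1 nM E2 and the vehicle 24 h group 0.01% ethanol, both for 24 h. The remaining 12 arrays were E2 for 3 h, vehicle for 3 h and an untreated group at 0 h, with 4 arrays each. Cells of all groups had been hormone deprived in charcoal-stripped serum for 3 days, so the vehicle cells were deprived cells and not cells in full growth medium. The series text calls the replicates biological, and the p-values measure the spread between cultures of this 1 line.

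Estradiol diffuses into the cell and binds the estrogen receptor, a transcription factor encoded by ESR1. The bound receptor dimerises, settles on DNA at estrogen response elements or beside other factors, and raises or lowers transcription of nearby genes. In luminal breast cancer cells the early targets include other transcription factors and growth regulators, so that many later changes are indirect, and the cells enter the division cycle. Late responses are therefore usually described by function, as secreted products, metabolism, transport, signalling and the shape of the cell.

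Each value below is a log2 signal after robust multi-array averaging (RMA), the authors' normalization, so a difference of 1 is a 2-fold change. For a gene with several probe sets, the set with the highest mean over all 20 arrays was used, which left 11963 genes. Array values are listed in the order of replicates A to D. A difference is E2 minus vehicle with its standard error from limma, which fits all genes and arrays together, and a gene was called at a Benjamini-Hochberg adjusted p under 0.05. Signals under 6.11, where the lowest 25% of gene means lay, were taken as dim, and a fold is not given where a group's mean was dim. A probe set reports a relative signal, so levels are compared between groups and never between genes.

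At 24 h limma called 5469 genes, 45.7% of those tested. Higher were 2572 genes (21.5%) and lower 2897 (24.2%). Counts of gene families below are to be read beside these shares. At least 1.5-fold higher were 361 genes (3.02%), and 398 (3.33%) were at least 1.5-fold lower. Most called changes were small, with a median size of 0.24 on the log2 scale. Over all genes the median difference was 0.017. The E2 arrays lay wholly above the vehicle arrays in 2255 of the 11963 genes and wholly below in 2694. Most genes named below were chosen for a lack of overlap or for a small p. A lack of overlap in a named gene therefore describes that gene and is no further test. Arrays of a group correlated at 0.9978 to 0.9991. Correlations across the groups of the study ran from 0.9882 to 0.9982. The 9 luminal markers examined were all above the dim level. By their mean over all 20 arrays, markers of other cells were mostly dim: 5 of 5 measured for basal cells, 9 of 12 for stroma and 8 of 12 for immune cells and endothelium. A wider list of 13 basal and myoepithelial markers had 6 dim in both groups, and 4 of the 13 were higher and 4 lower with E2. COL1A1, PDGFRB, THY1, CD3D, CD3E, ITGAM and VWF were not dim. In an RNA extract of many cells, fewer cells of a type and less RNA per cell cannot be told apart.

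The arrays held large responses in secreted and epithelial products. S100A7 (psoriasin), a small calcium-binding protein of inflamed skin and some breast cancers, read 11.69, 11.82, 11.69 and 11.69 with E2, against 7.42, 7.54, 7.53 and 7.78 with vehicle. All E2 arrays lay above all vehicle arrays, and the rise was 4.15 ± 0.08, or 17.8-fold (limma adjusted p = 1.8e-18). S100A8, a calcium-binding protein best known from neutrophils, read 11.40, 11.47, 11.44 and 11.43 with E2, against 9.50, 9.68, 9.69 and 9.66 with vehicle. It rose by 1.80 ± 0.05, or 3.49-fold, with no overlap between the groups. The other 15 measured genes of the S100 family stayed within a 1.5-fold change. In all, 3 of 17 were higher and 4 lower, close to the shares over all genes, and 5 were higher without vehicle replicate D. S100A10 fell by 0.13 ± 0.02 and S100A4 by 0.26 ± 0.05.

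The protease MMP26 (matrilysin 2) had signals of 9.47, 9.47, 9.34 and 9.18 with E2, against 5.22, 5.09, 5.26 and 5.28 with vehicle. Its vehicle arrays were all dim and its E2 arrays all well above the dim level. Among 114 proteases and their inhibitors 26 were higher and 20 lower, with 8 and 3 past 1.5-fold. Serpins were among the higher ones. SERPINA5, the protein C inhibitor, read 10.04, 10.03, 10.01 and 10.10 with E2, against 8.35, 8.42, 8.51 and 8.54 with vehicle. SERPINA1 (alpha-1 antitrypsin) rose by 1.25 ± 0.04 and SERPINA3 (alpha-1 antichymotrypsin) by 1.08 ± 0.04. For all 3 serpins the groups did not overlap, which describes chosen genes and is no further test. The membrane-anchored protease PRSS8 (prostasin) fell by 0.60 ± 0.05.

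Some products of mucous and glandular epithelia were higher and others lower. SPINK4, a secreted protease inhibitor of goblet cells, read 9.33, 9.37, 9.21 and 9.27 with E2, against 7.55, 7.55, 7.46 and 7.52 with vehicle. TFF2, a trefoil peptide that coats the gastric lining, read 11.23, 11.16, 10.94 and 10.94 with E2, against 9.47, 9.44, 9.47 and 9.46 with vehicle. Both were higher in every E2 array than in any vehicle array, by 1.78 ± 0.05 and 1.61 ± 0.05. A list of 21 estrogen targets known from ductal breast cancer lines had 17 higher and 2 lower. TFF1, the trefoil peptide best known among them, rose by only 0.14 ± 0.02. Its signal was already at 13.57, 13.57, 13.57 and 13.59 in vehicle, near the top of the scale. The adhesion glycoprotein CEACAM5 read 8.88, 8.93, 8.83 and 8.76 with E2, against 10.14, 10.23, 10.21 and 10.22 with vehicle. It fell by 1.35 ± 0.04, or 2.55-fold, and its relative CEACAM6 fell by 0.98 ± 0.07. SCGB1D2 (lipophilin B), a secretoglobin of the breast, fell by 0.75 ± 0.03, and PIP (prolactin-induced protein) by 0.33 ± 0.03. Of 58 such genes measured 10 were higher (17.2%) and 11 lower (19.0%), both below the 21.5% and 24.2% of all genes. Dim in both groups were 20 of them. TCN1 (haptocorrin), a secreted binder of vitamin B12, rose by 1.77 ± 0.06. SERHL2 had the largest decrease of all, -3.10 ± 0.04, on probe sets that may also bind other transcripts. In E2 it read 9.06, 9.03, 8.93 and 8.93, and in vehicle 12.03, 12.08, 12.10 and 12.14.

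**Figure D1:**
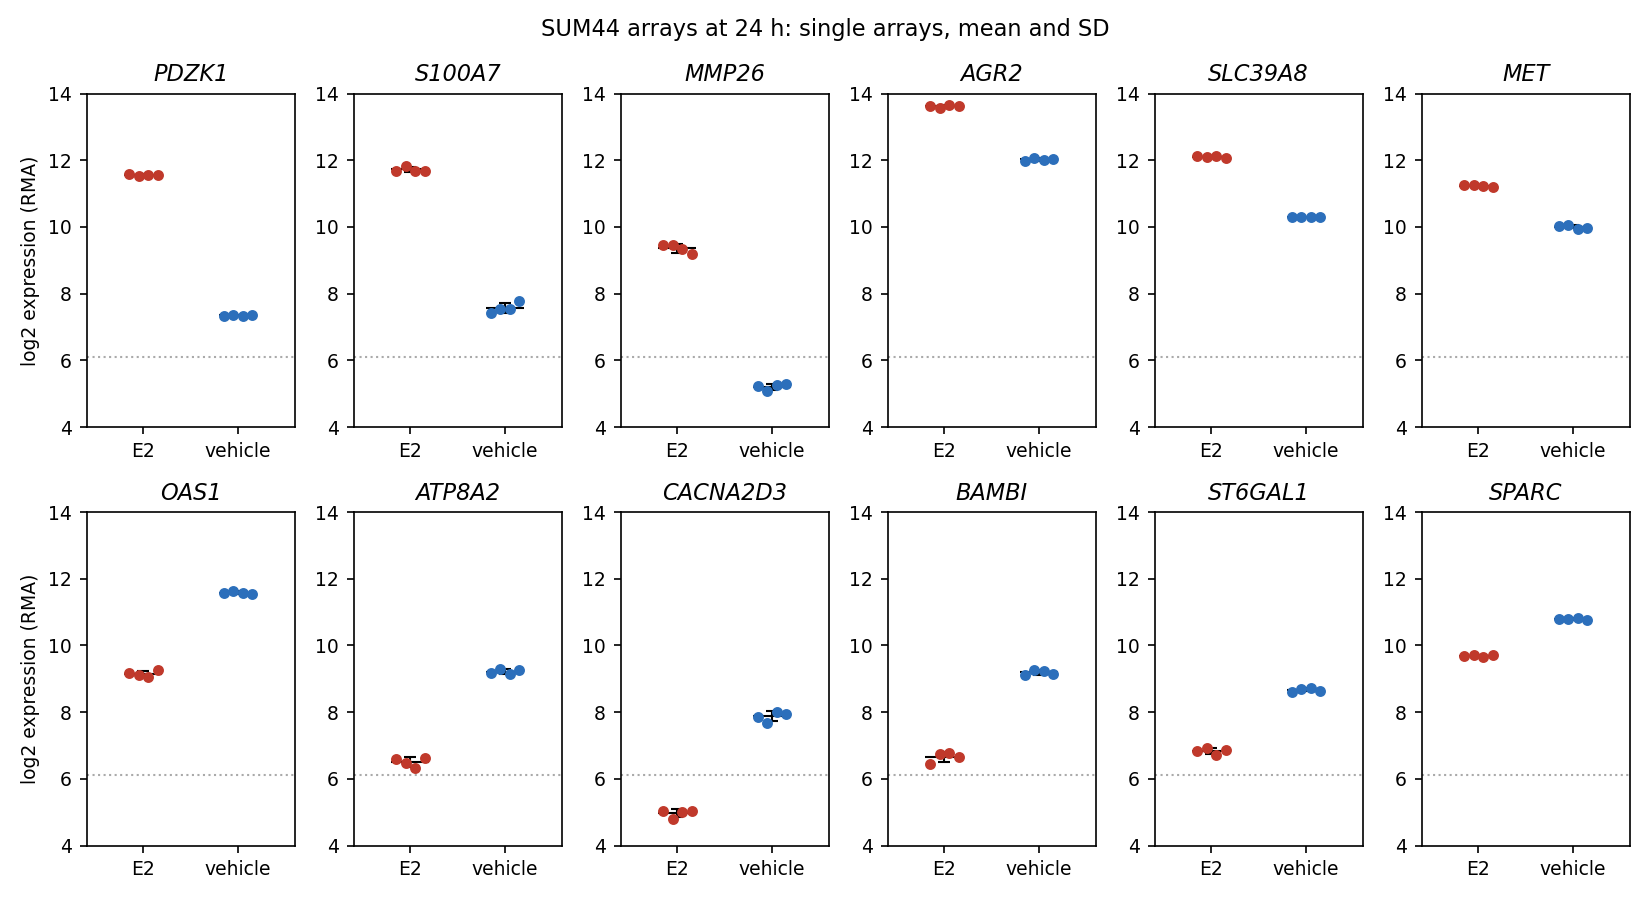
Log2 RMA signal of 12 genes in each of the 4 E2 24 h arrays (left in each panel) and the 4 vehicle 24 h arrays (right), with the group mean and SD in black and the dim level of 6.11 as a dotted line. In all 12 genes the E2 arrays lie wholly above or wholly below the vehicle arrays, and the points within a group lie close together. Among all 11963 genes the same held for 2255 above and 2694 below.

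Genes that fold and process proteins in the endoplasmic reticulum were more often higher than lower. This organelle threads new secreted and membrane proteins into its lumen, where chaperones, disulfide isomerases and glycosylation enzymes mature them. Of 41 measured genes 28 (68.3%) were higher and 5 lower, against 21.5% and 24.2% of all genes. The median difference was 0.23 at 24 h, beside -0.01 for E2 against vehicle at 3 h. The mean over the list was 11.36 to 11.39 in the E2 arrays and 11.11 to 11.13 in the vehicle arrays, with no overlap. Over the list as a whole the shift was small, and 4 genes passed 1.5-fold.

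AGR2, a disulfide isomerase needed for mucin folding and known from estrogen receptor positive tumours, read 13.64, 13.58, 13.65 and 13.62 with E2, against 11.98, 12.06, 12 and 12.05 with vehicle. All 4 E2 arrays were more than 1.5 above all vehicle arrays. It rose by 1.60 ± 0.03, or 3.03-fold (limma adjusted p = 1.1e-17). SSR3, a subunit of the translocon-associated complex, read 9.88, 9.85, 9.84 and 9.85 with E2, against 8.74, 8.85, 8.87 and 8.74 with vehicle. The chaperone cofactor SDF2L1 read 10.21, 10.16, 10.05 and 10.12 with E2, against 9.46, 9.50, 9.52 and 9.66 with vehicle, and the signal peptidase subunit SPCS3 rose by 0.59 ± 0.03. CALR (calreticulin), a lectin chaperone, read 11.25, 11.16, 11.23 and 11.20 with E2, against 10.66, 10.70, 10.64 and 10.74 with vehicle, a rise of 0.53 ± 0.04. XBP1, a transcription factor of the unfolded protein response, rose by 0.29 ± 0.03. The chaperone HSPA5 (BiP) rose by 0.39 ± 0.03, a gene named here after its values were seen. HERPUD1, a protein of the degradation route, went the other way at -0.32 ± 0.04.

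Some promoters of this group carry the endoplasmic reticulum stress response element, the sequence through which folding stress acts on chaperone genes. The motif searched was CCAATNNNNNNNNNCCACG, on both strands, from 250 bases before to 50 after each start, in RefSeq promoters of build GRCh38.p14. It was chosen after the list's values had been seen. It was in 7 of the 39 promoters matched for the list (17.9%), against 12 of 9563 promoters of all genes tested (0.125%) and 22 of 27305 in the table (0.0806%). Of the 27 matched genes that were higher, 6 held it (CALR, CANX, CRELD2, HSP90B1, HSPA5 and XBP1). The seventh, ERO1B, was not called. The list is made of genes of which several are known for this element, so its share describes the list and not the response. Windows of 3 of them are shown for the element, in capitals, as 120 bases 5′ to 3′ on the gene's own strand. CALR is at chr19:12938359-12938478 on the plus strand, HSPA5 at chr9:125241344-125241463 and XBP1 at chr22:28800570-28800689, both on the minus strand. In CALR the match reads on the opposite strand (CGTGG first).
CALR: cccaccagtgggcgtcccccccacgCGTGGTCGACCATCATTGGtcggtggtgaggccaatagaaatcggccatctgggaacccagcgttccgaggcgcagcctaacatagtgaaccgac
HSPA5: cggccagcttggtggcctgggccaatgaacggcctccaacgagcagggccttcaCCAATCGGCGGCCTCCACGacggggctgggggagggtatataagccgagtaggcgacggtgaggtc
XBP1: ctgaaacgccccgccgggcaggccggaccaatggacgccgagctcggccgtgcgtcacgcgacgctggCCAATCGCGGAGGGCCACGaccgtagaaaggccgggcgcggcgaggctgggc

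**Figure D2:**
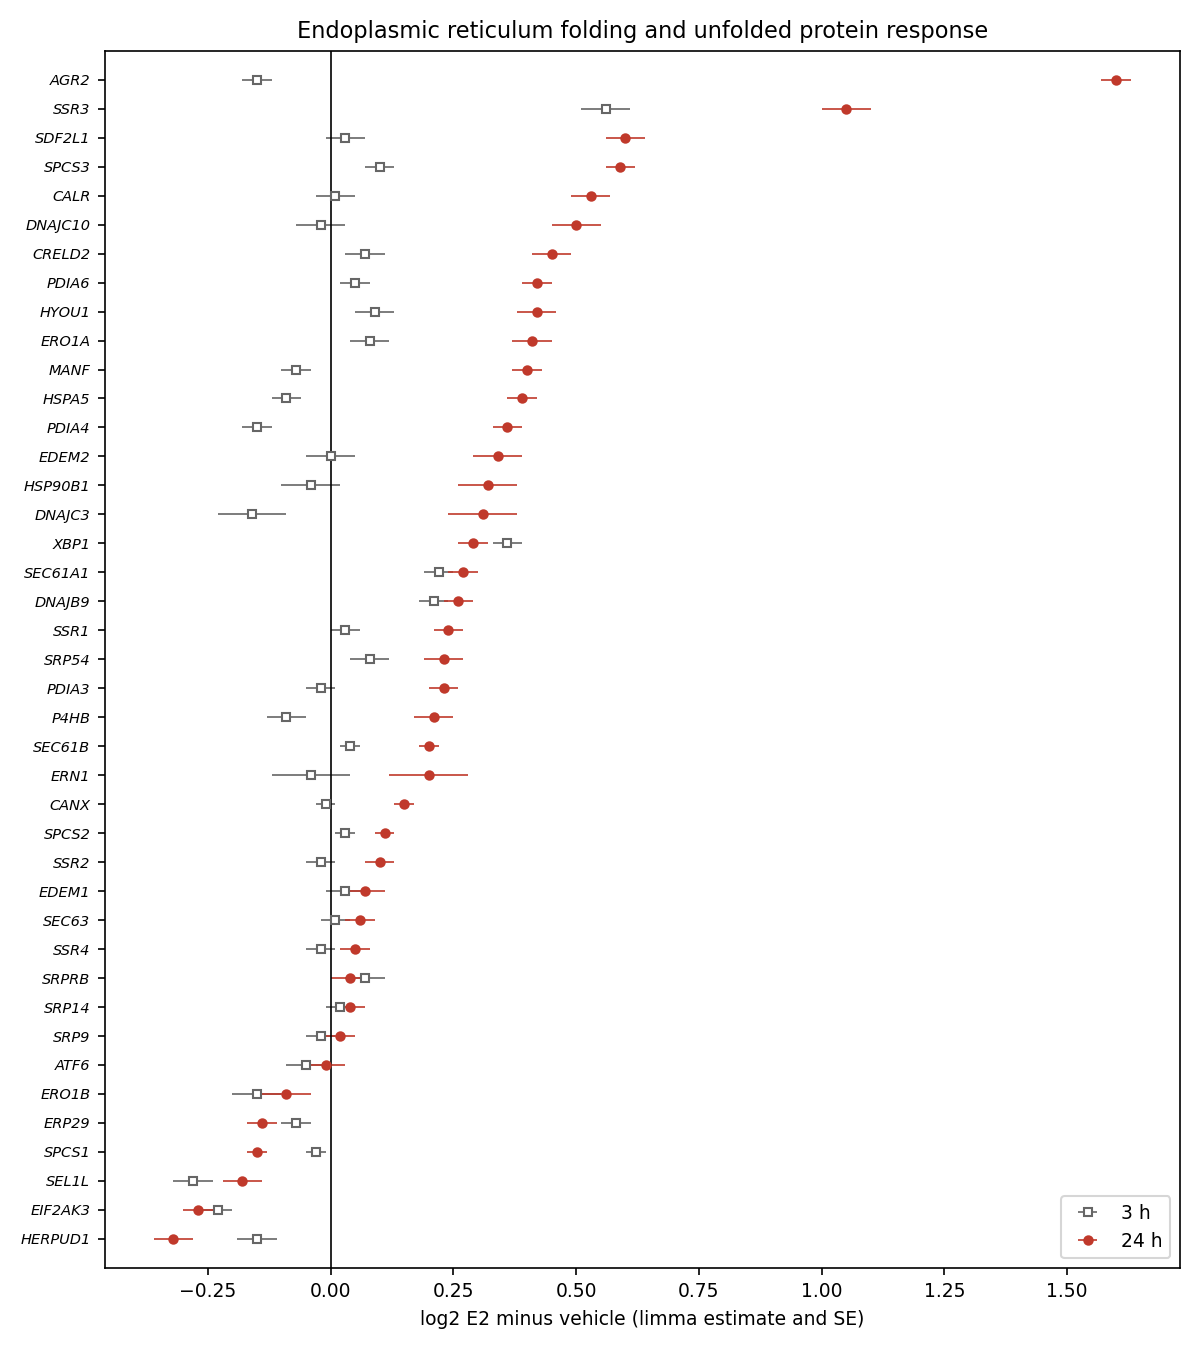
Log2 difference, E2 minus vehicle, of the 41 endoplasmic reticulum folding and processing genes at 24 h and at 3 h, each point with its standard error. At 24 h 28 points are called higher and 5 lower, and AGR2 lies farthest to the right at 1.60.

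Other steps of the secretory route did not share that direction. Of 89 glycosylation enzymes 13 were higher and 27 lower. ST6GAL1, which caps N-glycans with sialic acid, read 6.84, 6.94, 6.71 and 6.88 with E2, against 8.62, 8.71, 8.73 and 8.64 with vehicle. That is a fall of 1.83 ± 0.04, or 3.56-fold, with no overlap. GCNT1, which branches O-glycans, fell by 1.73 ± 0.06, and NDST4, a heparan sulfate sulfotransferase, by 1.38 ± 0.04. MAN1C1, a Golgi mannosidase, read 6.44, 6.47, 6.37 and 6.32 with E2, against 8.04, 8.04, 8.14 and 8.10 with vehicle, and fell by 1.68 ± 0.06. B4GALT1, a galactosyltransferase, was among the higher genes at 0.80 ± 0.04, with the sulfotransferase CHST8 at 0.89 ± 0.07.

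Among 97 genes of vesicle traffic 15 (15.5%) were higher and 36 (37.1%) lower. RAB31, a small GTPase of the Golgi and endosomes, read 11.62, 11.55, 11.52 and 11.61 with E2, against 9.79, 9.96, 9.87 and 9.94 with vehicle, and rose by 1.69 ± 0.05. SYT1 (synaptotagmin 1), a calcium sensor of vesicle fusion, rose by 1.18 ± 0.03. SNAP25, part of the fusion machinery of neurons, read 7.88, 7.87, 7.88 and 7.72 with E2, against 9.20, 9.26, 9.32 and 9.25 with vehicle, a fall of 1.42 ± 0.05. STON1 (stonin 1), an endocytic adaptor protein, read 7.43, 7.15, 7.24 and 7.02 with E2, against 9.85, 9.72, 9.88 and 9.68 with vehicle, and fell by 2.57 ± 0.09. The E2 arrays of both genes lay below every vehicle array.

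Energy metabolism shifted by small amounts in many genes. Of 69 genes of oxidative phosphorylation 38 (55.1%) were higher and 5 (7.2%) lower. None of them passed 1.5-fold, and the median difference was 0.07. A fit of the 8 arrays alone gave 28 higher and 2 lower. The lower ones were also 2 with arrays centred on their median, under cyclic loess and at an adjusted p of 0.01, and 3 without E2 replicate D. CYCS (cytochrome c) read 13.28, 13.28, 13.34 and 13.33 with E2, against 13.05, 13.04, 13.08 and 13.02 with vehicle. The ATP synthase subunit ATP5MC3 rose by 0.29 ± 0.02 and the complex I subunit NDUFA6 by 0.25 ± 0.03. In these 3 genes the E2 arrays were all above the vehicle arrays, although the rises were at most 0.29. Of 51 mitochondrial ribosome genes 18 were higher and 9 lower.

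In the citric acid cycle and its entry 14 of 28 genes were higher and 5 lower. OGDH (2-oxoglutarate dehydrogenase) rose by 0.38 ± 0.04 and PDHB (pyruvate dehydrogenase) by 0.33 ± 0.03. ACO1, the cytosolic aconitase that also senses iron, rose by 0.56 ± 0.04. ME2 (mitochondrial malic enzyme) fell by 0.52 ± 0.05. PDK1, a kinase that inhibits pyruvate dehydrogenase, fell by 0.35 ± 0.05.

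Of 34 glycolysis and hypoxia genes 21 (61.8%) were higher and 9 lower. PFKFB3, which makes the activator of phosphofructokinase, read 10.57, 10.57, 10.51 and 10.42 with E2, against 9.85, 9.71, 9.79 and 9.73 with vehicle. PGAM1 (phosphoglycerate mutase) rose by 0.48 ± 0.03. The hypoxia-inducible factors HIF1A and EPAS1 rose by 0.48 ± 0.03 and 0.57 ± 0.04. Among the 9 lower genes were EGLN3, a prolyl hydroxylase, at -0.91 ± 0.09, and NDRG1 at -1.13 ± 0.03. The list does not separate targets of hypoxia from other glycolysis genes.

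Nucleotide synthesis genes were higher more often than the 21.5% of all genes. Of 27 genes 18 (66.7%) were higher and 6 lower, with a median of 0.25. TK1 (thymidine kinase) read 8.55, 8.50, 8.40 and 8.43 with E2, against 7.46, 7.46, 7.53 and 7.51 with vehicle, a rise of 0.98 ± 0.05. RRM2 (ribonucleotide reductase) rose by 1.15 ± 0.06, and TYMS (thymidylate synthase) by 0.87 ± 0.04. CMPK1, a pyrimidine nucleotide kinase, fell by 0.31 ± 0.03, and IMPDH2, of guanine nucleotide synthesis, by 0.21 ± 0.03. For scale, 38 of 40 DNA replication genes and 14 of 18 cholesterol genes were higher, by medians of 0.69 and 0.40. RRM1, RRM2 and TYMS belong to both the nucleotide and the replication list, so these lists are not independent.

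In fatty acid synthesis 11 of 24 genes were higher and 4 lower. ELOVL6, which elongates saturated fatty acids, read 10.37, 10.39, 10.35 and 10.35 with E2, against 9.32, 9.25, 9.36 and 9.28 with vehicle, and rose by 1.06 ± 0.04. FASN (fatty acid synthase) rose by 0.60 ± 0.05 and SCD (stearoyl-CoA desaturase) by 0.43 ± 0.03. ACACB, the mitochondrial acetyl-CoA carboxylase that restrains fatty acid oxidation, read 10.24, 10.24, 10.23 and 10.21 with E2, against 11.23, 11.24, 11.19 and 11.27 with vehicle. It fell by 1.01 ± 0.04, with 4 of 4 probe sets lower. In fatty acid oxidation and peroxisomes 11 of 39 genes were higher and 14 lower. The mitochondrial enzymes ACAA2 and ACADS fell by 0.56 ± 0.04 and 0.55 ± 0.04, while HADH rose by 0.45 ± 0.03. ACOX2, a peroxisomal oxidase of branched chains, read 9.58, 9.62, 9.42 and 9.47 with E2, against 6.96, 7.0, 7.11 and 7.09 with vehicle, and rose by 2.48 ± 0.06.

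Antioxidant and detoxifying genes moved down more often than up. Genes linked to NRF2, the factor that answers oxidants, were higher in 6 and lower in 17 of 30 cases (56.7%). Their median was -0.16. The list also holds NFE2L2, the gene of NRF2 itself, so not every member is a target. GPX2, a glutathione peroxidase of epithelia, read 8.82, 8.75, 8.74 and 8.62 with E2, against 9.99, 10.10, 10.07 and 10.14 with vehicle. It fell by 1.34 ± 0.04, or 2.54-fold. NQO1 (quinone reductase) read 11.35, 11.38, 11.32 and 11.33 with E2, against 12.15, 12.20, 12.22 and 12.20 with vehicle, a fall of 0.85 ± 0.02. In both genes the groups were far apart relative to their spread. OSGIN1, induced by oxidants, went the other way at 1.12 ± 0.06, and PRDX1 (peroxiredoxin 1) rose by 0.32 ± 0.03. GSTA3, a glutathione transferase with a role in steroid synthesis, was lower as well, with 7.73, 7.65, 7.68 and 7.57 with E2, against 9.61, 9.57, 9.67 and 9.62 with vehicle.

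Enzymes that act on steroids and retinoids were split, 10 higher and 9 lower of 30. HSD17B2, which oxidises estradiol to estrone, read 9.06, 9.04, 8.94 and 8.80 with E2, against 10.42, 10.37, 10.35 and 10.32 with vehicle. The fall was 1.41 ± 0.05, or 2.66-fold, and the groups did not overlap. CYP1B1, which hydroxylates estradiol, read 11.72, 11.76, 11.74 and 11.69 with E2, against 10.04, 10.13, 10.09 and 10.14 with vehicle, and rose by 1.63 ± 0.04, with 4 of 4 probe sets higher. UGT2B15, which conjugates androgens and estrogens, was dim in vehicle at 5.90, 5.65, 5.88 and 5.97. With E2 it read 7.51, 7.52, 7.36 and 7.47, and its name covers probe sets that may also bind related transcripts. The reductases AKR1C3, AKR1C2 and AKR1C1, which have similar sequences, fell by 0.80 ± 0.03, 0.61 ± 0.03 and 0.55 ± 0.03. CRABP2, a carrier of retinoic acid, rose by 0.68 ± 0.04. DDC (aromatic amino acid decarboxylase) and HDC (histidine decarboxylase) make signalling amines. They fell by 1.97 ± 0.06 and 2.55 ± 0.04, and DDC read 6.85, 6.49, 6.68 and 6.48 with E2, against 8.51, 8.57, 8.70 and 8.60 with vehicle.

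Nuclear receptors themselves were higher in 6 and lower in 11 of 29 cases, with 3 higher without the dimmest genes. RORA, a receptor of the circadian system, read 6.28, 6.41, 6.40 and 5.88 with E2, against 7.43, 7.37, 7.35 and 7.48 with vehicle. It fell by 1.17 ± 0.10. NR1D2, of the same system, fell by 0.49 ± 0.06, and VDR (vitamin D receptor) by 0.46 ± 0.03. ESR1 fell by 0.18 ± 0.03, with 6 of its 9 probe sets called lower and 0 higher.

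Transport across membranes changed in both directions. PDZK1, a scaffold that anchors membrane transporters, had the largest increase of all the genes. It read 11.59, 11.53, 11.57 and 11.56 with E2, against 7.34, 7.36, 7.33 and 7.37 with vehicle, a rise of 4.21 ± 0.11 or 18.5-fold. Of 222 solute carriers 62 were higher (27.9%) and 50 lower (22.5%), beside 21.5% and 24.2% of all genes. SLC39A8, which imports zinc and manganese, read 12.12, 12.11, 12.12 and 12.06 with E2, against 10.30, 10.30, 10.31 and 10.29 with vehicle. It rose by 1.80 ± 0.03, or 3.49-fold (limma adjusted p = 5.8e-19). SLC30A1, which exports zinc, read 13.25, 13.23, 13.16 and 13.08 with E2, against 11.83, 11.84, 11.88 and 11.93 with vehicle, a rise of 1.31 ± 0.04. Both zinc carriers were higher in all E2 arrays. SLC26A2, a sulfate carrier, rose by 1.27 ± 0.05. SLC7A5, a large neutral amino acid carrier, rose by 0.80 ± 0.04. SLC12A2, a sodium, potassium and chloride cotransporter, read 10.98, 10.92, 11.05 and 11.09 with E2, against 12.18, 12.21, 12.20 and 12.13 with vehicle, and fell by 1.17 ± 0.04. The nucleoside carrier SLC28A2 fell by 0.97 ± 0.04 and the carnitine and ergothioneine carrier SLC22A4 by 0.87 ± 0.04.

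Pumps driven by ATP were more often lower, with 20 of 61 (32.8%) against 13 higher (21.3%), beside 24.2% and 21.5% of all genes. Past 1.5-fold the counts were 11 lower and 1 higher. ATP8A2, a flippase that moves phospholipids across the membrane, read 6.61, 6.47, 6.33 and 6.64 with E2, against 9.18, 9.28, 9.14 and 9.27 with vehicle. ABCG1, which exports cholesterol, read 8.84, 8.68, 8.83 and 8.66 with E2, against 10.45, 10.38, 10.43 and 10.37 with vehicle. They fell by 2.70 ± 0.06 and 1.65 ± 0.05, or 6.52-fold and 3.14-fold. ATP2A3, a calcium pump of the endoplasmic reticulum, fell by 0.93 ± 0.04 on probe sets that may bind other transcripts. ABCA3, a lipid transporter of lamellar bodies, was the 1 pump over 1.5-fold higher, at 1.27 ± 0.04.

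Ion channels were mostly dim or uncalled, with 32 higher and 17 lower of 186. The count of higher channels was 20 under cyclic loess scaling, 16 at an adjusted p of 0.01, 19 without the dimmest genes, 20 without vehicle replicate D and 21 without E2 replicate D. KCND3, a potassium channel subunit, read 10.32, 10.29, 10.34 and 10.17 with E2, against 8.48, 8.47, 8.58 and 8.58 with vehicle. The vehicle arrays of KCNK2, a potassium leak channel, were dim at 4.62, 4.61, 4.51 and 4.54. Its E2 arrays read 6.89, 6.74, 6.84 and 6.56, so all were above the dim level. CACNA2D3, a calcium channel subunit, was dim in E2 at 5.04, 4.81, 5.01 and 5.05. In vehicle it read 7.86, 7.69, 8.01 and 7.96. The sodium channel SCN1A fell by 1.64 ± 0.04 and the calcium-gated potassium channel KCNMA1 by 1.39 ± 0.05. SCNN1B, a subunit of the epithelial sodium channel, rose by 1.21 ± 0.07.

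**Figure D3:**
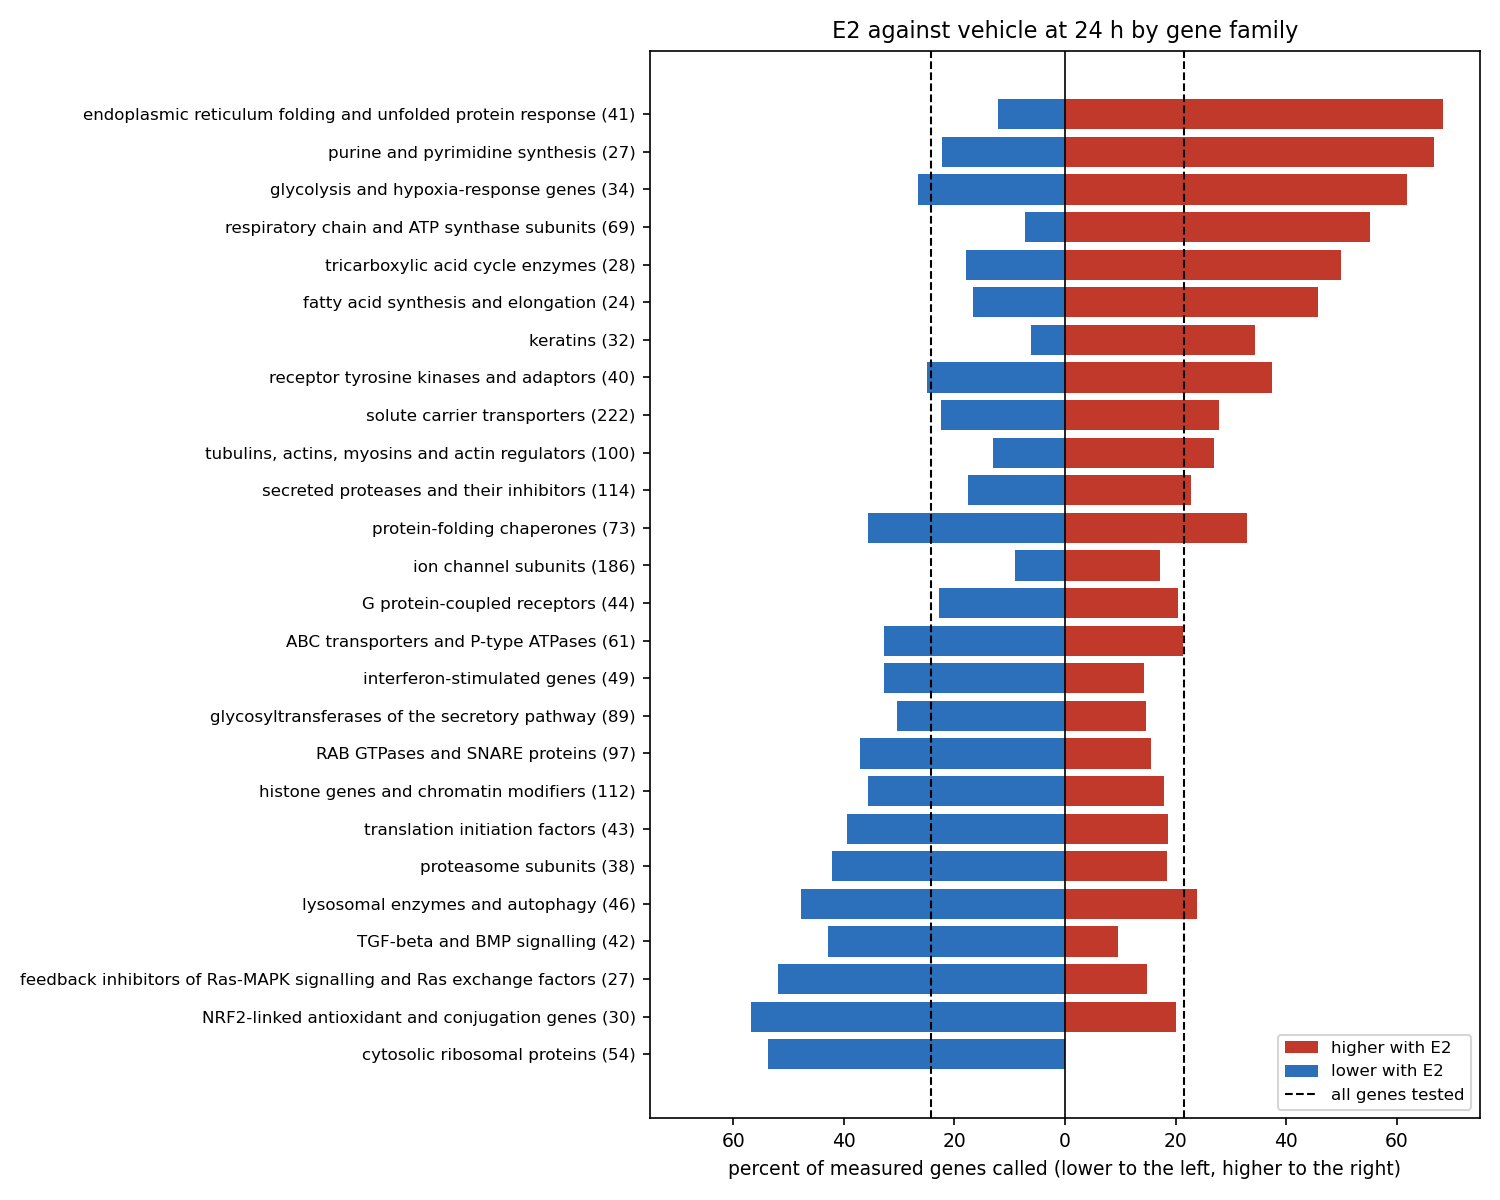
Percent of the measured genes of 26 gene families called higher (bars to the right) and lower (bars to the left) with E2 at 24 h. The dashed lines mark the shares over all genes tested, 21.5% higher and 24.2% lower, and the number of measured genes follows each name. The endoplasmic reticulum family at the top reaches 68.3% higher, and the ribosomal proteins at the bottom have 0 higher.

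Genes of protein synthesis moved by small amounts, in directions that differed between families. By limma, 0 of 54 ribosomal protein genes were higher and 29 lower, with a median of -0.06. At an unadjusted p under 0.05 the counts were 0 higher and 32 lower. RPL18 read 12.80, 12.82, 12.75 and 12.76 with E2, against 13.03, 13.02, 13.02 and 13.09 with vehicle, and fell by 0.26 ± 0.03. The count of lower genes was 14 in a fit of the 8 arrays alone, 13 with arrays centred on their median, 14 at an adjusted p of 0.01 and 19 without E2 replicate C. Signals of this family lie near the top of the scale. Among 43 initiation factors and regulators 8 were higher and 17 lower. EIF1B fell by 0.47 ± 0.03 and EIF3E by 0.25 ± 0.03. EIF2AK2 (PKR), an interferon-induced kinase that halts translation, read 10.08, 10, 10.07 and 10.05 with E2, against 10.53, 10.48, 10.52 and 10.38 with vehicle, and EIF2AK3 (PERK), which halts it under folding stress, fell by 0.27 ± 0.03. Of 39 genes that build ribosomes 11 were higher and 6 lower. Under cyclic loess scaling these counts were 17 and 2. The lower ones were 3 in a fit of the 8 arrays alone, and 2 with centred arrays or at an adjusted p of 0.01.

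In the proteasome and its assembly 7 of 38 genes were higher (18.4%) and 16 lower (42.1%). Under cyclic loess 11 were higher. The subunit PSMA3 rose by 0.26 ± 0.03 and the assembly chaperone PSMG1 by 0.32 ± 0.04, while the assembly chaperone PSMD5 fell by 0.39 ± 0.04. PSMB9, PSMB8 and PSMB10 are the catalytic subunits of the immunoproteasome, which replaces the standard one under interferon. PSMB9 read 7.58, 7.61, 7.37 and 7.48 with E2, against 8.0, 8.04, 8.18 and 8.22 with vehicle. PSMB8 fell by 0.38 ± 0.05 and PSMB10, named here after its values were seen, by 0.42 ± 0.06. All 3 were lower in every E2 array than in any vehicle array.

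Lysosome and autophagy genes were lower in 22 (47.8%) and higher in 11 (23.9%) of 46 cases. The enzymes with the largest changes went against that count. CTSD (cathepsin D), a lysosomal protease long known as an estrogen target, read 12.52, 12.55, 12.66 and 12.48 with E2, against 11.46, 11.47, 11.55 and 11.62 with vehicle. GLA (alpha-galactosidase A) read 10.43, 10.47, 10.41 and 10.39 with E2, against 9.36, 9.45, 9.39 and 9.50 with vehicle. They rose by 1.03 ± 0.04 and 1.0 ± 0.04, while GABARAPL1, an autophagosome protein, fell by 0.61 ± 0.05 and HEXA (hexosaminidase) by 0.37 ± 0.03.

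Receptor tyrosine kinases and their adaptors were higher in 15 and lower in 10 of 40 cases. At an adjusted p of 0.01 the higher ones were 9. MET, the receptor of hepatocyte growth factor, read 11.26, 11.25, 11.24 and 11.20 with E2, against 10.02, 10.05, 9.95 and 9.98 with vehicle. It rose by 1.24 ± 0.04, or 2.36-fold, with 4 of 4 probe sets higher. FGFR2 and FGFR3, receptors of fibroblast growth factors, rose by 1.29 ± 0.06 and 1.22 ± 0.08. ERBB2 (HER2) read 9.43, 9.41, 9.32 and 9.35 with E2, against 10.27, 10.35, 10.34 and 10.44 with vehicle. Its fall of 0.97 ± 0.04 was 1.96-fold, and ERBB4, a receptor of neuregulins, fell by 0.76 ± 0.04. The other members of both families, named here after their values were seen, were mixed. ERBB3 fell by 0.38 ± 0.04 and FGFR1 by 0.44 ± 0.04, EGFR rose by 0.15 ± 0.05, and FGFR4 was not called at 0.09 ± 0.05.

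Among G protein coupled receptors 9 were higher and 10 lower of 44. CXCR4, the receptor of CXCL12, read 9.47, 9.42, 9.42 and 9.40 with E2, against 11.11, 11.06, 11.07 and 10.97 with vehicle, and fell by 1.63 ± 0.04. GPRC5A, an orphan receptor induced by retinoic acid, read 6.98, 6.93, 6.62 and 6.87 with E2, against 8.95, 9.0, 9.03 and 8.88 with vehicle, and fell by 2.11 ± 0.07. NPY1R and NPY5R, receptors of neuropeptide Y, rose by 0.96 ± 0.04 and 1.06 ± 0.04. CX3CR1 and CNR1 fell to dim levels with E2. Of 40 regulators of cyclic AMP and G proteins 10 were higher and 15 lower. ADCY1, a calcium-stimulated adenylate cyclase, read 11.83, 11.80, 11.84 and 11.84 with E2, against 9.84, 9.96, 9.93 and 10.03 with vehicle. It rose by 1.89 ± 0.05. RGS2, which dampens G protein signals, fell by 1.44 ± 0.07, as did RGS10 by 0.84 ± 0.03 and RGS5 by 0.78 ± 0.04, while RGS16 rose by 0.70 ± 0.07.

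Feedback inhibitors of RAS and MAP kinase signalling and RAS exchange factors were lower in 14 and higher in 4 of 27 cases (51.9% lower). The list took in DUSP phosphatases as a family and RASGRP1, RASGRP2 and RASGRP3, so not every member is a feedback inhibitor. DUSP6, a phosphatase of ERK, read 9.69, 9.71, 9.60 and 9.56 with E2, against 10.78, 10.76, 10.70 and 10.64 with vehicle, and fell by 1.08 ± 0.05. SPRY1 (sprouty 1), an inhibitor of receptor signals, fell by 0.99 ± 0.07, while its relative SPRY4 rose by 1.08 ± 0.06. RASGRP1, an exchange factor that activates RAS and no inhibitor, read 8.60, 8.60, 8.51 and 8.44 with E2, against 6.51, 6.14, 6.28 and 6.45 with vehicle. All E2 arrays of RASGRP1 were near 8.5 and all vehicle arrays under 6.6.

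In TGF-beta and BMP signalling 18 of 42 genes were lower and 4 higher, or 2 higher under cyclic loess or at an adjusted p of 0.01. BAMBI, a decoy receptor that blocks the pathway, read 6.44, 6.75, 6.77 and 6.67 with E2, against 9.12, 9.26, 9.24 and 9.15 with vehicle. It fell by 2.53 ± 0.07, while SMAD7, an inhibitor inside the cell, rose by 0.70 ± 0.05. TGFBR3 (betaglycan), a co-receptor, read 9.82, 9.65, 9.68 and 9.51 with E2, against 8.53, 8.43, 8.50 and 8.53 with vehicle. INHBB, the activin B chain, fell by 0.80 ± 0.03, and ID2, a target of BMPs, by 0.81 ± 0.04. Inhibitors of the pathway thus lie in both directions.

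WNT genes were higher in 9 and lower in 9 of 45 cases, no more often than all genes. FZD7, a WNT receptor, read 11.65, 11.63, 11.63 and 11.61 with E2, against 10.23, 10.28, 10.23 and 10.18 with vehicle, and rose by 1.40 ± 0.04. FZD4 fell by 0.55 ± 0.07. Of 20 NOTCH genes 2 were higher and 5 lower. HEY2, a transcription factor downstream of NOTCH, read 9.51, 9.39, 9.44 and 9.49 with E2, against 7.47, 7.46, 7.53 and 7.39 with vehicle. It rose by 2.0 ± 0.05, or 3.99-fold. JAG1, a NOTCH ligand, rose by 0.69 ± 0.05, whereas HES1 and HEY1, also downstream of NOTCH, fell by 0.55 ± 0.05 and 0.24 ± 0.05.

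Secreted ligands were higher in 10 and lower in 11 of 44 cases. EGFL6, a secreted protein with EGF-like repeats, read 10.49, 10.41, 10.37 and 10.32 with E2, against 7.17, 7.05, 7.12 and 7.18 with vehicle. EDN1 (endothelin 1), a vasoconstrictor peptide, read 8.45, 8.47, 8.43 and 8.45 with E2, against 9.44, 9.50, 9.46 and 9.55 with vehicle. FGF13, an intracellular relative of the fibroblast growth factors that binds sodium channels, fell by 1.22 ± 0.04. IGFBP4, which binds insulin-like growth factors, read 10.55, 10.60, 10.49 and 10.21 with E2, against 8.62, 8.70, 8.66 and 8.83 with vehicle, and rose by 1.76 ± 0.07. SEMA3C, a guidance molecule, rose by 0.68 ± 0.04. EFNA1 (ephrin A1) fell by 1.34 ± 0.03. Among 56 ephrins and guidance genes 9 were higher and 9 lower.

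Transcription factors of luminal cells were evenly split, 8 higher and 8 lower of 21. GATA3, a luminal master factor, read 13.13, 13.14, 13.14 and 13.08 with E2, against 13.64, 13.65, 13.61 and 13.62 with vehicle. It fell by 0.51 ± 0.04, and TRPS1 by 0.44 ± 0.04. CITED2, a co-activator that binds p300, fell by 0.81 ± 0.05. CITED1, its relative, was dim in vehicle at 5.82, 5.75, 5.44 and 5.65 and read 6.68, 6.77, 6.54 and 6.67 with E2. MYB rose by 0.35 ± 0.03 on its brightest probe set, and its second probe set was not called.

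Of the factors that respond first to growth signals 8 were higher and 6 lower of 22. EGR3, an early growth response factor, was dim in vehicle at 4.19, 4.19, 4.18 and 4.07 and read 7.53, 7.43, 7.49 and 6.82 with E2. MYC read 8.83, 8.88, 8.53 and 8.66 with E2, against 7.72, 7.66, 7.71 and 7.73 with vehicle, a rise of 1.02 ± 0.09. MYCN, its neural relative, read 9.90, 9.94, 9.89 and 9.83 with E2, against 10.93, 10.94, 10.87 and 10.95 with vehicle, a fall of 1.03 ± 0.04 on 3 of 3 probe sets. MAFF rose by 0.68 ± 0.06 and JUN, on probe sets that may bind other transcripts, fell by 0.62 ± 0.05. In the MYC, MAX and MXD network 4 of 12 genes were higher and 5 lower, or 2 higher with either other choice of probe sets. The MYC antagonists MXD1 and MXI1 differed in sign, at 0.57 ± 0.08 and -0.56 ± 0.04. Of 14 Krueppel-like factors 1 was higher and 3 were lower, and the higher count ran between 0 and 4 over the alternatives. Among 86 homeobox factors and their relatives 12 were higher and 19 lower. PBX3 read 9.06, 8.87, 8.95 and 8.83 with E2, against 7.74, 7.66, 7.81 and 7.79 with vehicle, and rose by 1.18 ± 0.06. MEIS1, a partner of PBX proteins, rose by 0.86 ± 0.05, while MEIS2 fell by 0.54 ± 0.05. PAX2, a factor of the developing kidney and reproductive tract, fell by 1.01 ± 0.07.

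Of 100 tubulins and actin regulators 27 were higher and 13 lower. ARPC1B, a subunit of the complex that branches actin, read 11.13, 11.07, 10.96 and 11.03 with E2, against 10.33, 10.29, 10.21 and 10.42 with vehicle. The tubulins TUBB and TUBB4B, which are near-identical in sequence, each rose by 0.5, with standard errors of 0.04. CCDC88A (girdin), an actin-binding protein, was dim in vehicle at 5.20, 4.97, 5.03 and 5.31 and read 7.11, 6.98, 7.24 and 6.58 with E2. MYO6, a myosin that moves towards the minus end of actin, fell by 0.56 ± 0.05, and MYH10 (non-muscle myosin IIB) by 0.60 ± 0.04. Keratins were higher in 11 and lower in 2 of 32 cases. Of these 32, 17 were dim in both groups, and 6 were higher without the dimmest genes. KRT19 and KRT8 are luminal keratins, and KRT19 read 13.37, 13.37, 13.26 and 13.31 with E2, against 12.62, 12.66, 12.65 and 12.75 with vehicle. KRT8 rose by 0.49 ± 0.03 and KRT7, also a keratin of simple epithelia, fell by 0.81 ± 0.04.

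Exchange factors for RAC and CDC42 were found on both sides. DOCK1, which activates RAC, read 10.03, 9.90, 9.96 and 9.97 with E2, against 8.79, 8.81, 8.93 and 8.90 with vehicle, and rose by 1.11 ± 0.06. TIAM1, also an activator of RAC, rose by 0.91 ± 0.04. ARHGEF6 (alpha-PIX), an exchange factor for RAC and CDC42, read 9.09, 9.12, 8.90 and 9.01 with E2, against 10.44, 10.45, 10.46 and 10.44 with vehicle. It fell by 1.42 ± 0.04. DOCK10 was dim in vehicle at 4.28, 4.40, 4.70 and 4.39 and read 7.19, 7.24, 7.05 and 6.95 with E2. IQGAP2, a scaffold that binds RAC and CDC42, read 9.52, 9.48, 9.41 and 9.50 with E2, against 11.22, 11.16, 11.19 and 11.10 with vehicle, and fell by 1.69 ± 0.04.

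Junction and adhesion genes were higher in 11 and lower in 14 of 71 cases. The higher ones were 5 at an adjusted p of 0.01. They were 7 without the dimmest genes, with the most variable probe set, and without vehicle replicate C, E2 replicate C or E2 replicate D. GJA1 (connexin 43), a gap junction protein, read 13.11, 13.03, 13.15 and 13.04 with E2, against 11.90, 11.91, 11.87 and 11.90 with vehicle. PCDH7 (protocadherin 7) rose by 1.12 ± 0.06. The tight junction proteins CLDN4 (claudin 4) and OCLN (occludin) fell by 0.69 ± 0.04 and 0.56 ± 0.04. CELSR2, a cadherin with a receptor-like membrane domain, read 10.96, 10.83, 10.97 and 10.93 with E2, against 9.08, 9.0, 9.0 and 9.07 with vehicle, and rose by 1.89 ± 0.05. The matrix and integrin list had 14 of 93 higher and 24 lower, and 7 higher without the dimmest genes or at an adjusted p of 0.01. SPARC (osteonectin), a matrix-binding glycoprotein, read 9.68, 9.70, 9.66 and 9.72 with E2, against 10.79, 10.80, 10.82 and 10.77 with vehicle. It fell by 1.11 ± 0.03, or 2.15-fold, and LAMB1 (laminin beta 1) by 1.09 ± 0.05. SDC2 (syndecan 2), a heparan sulfate proteoglycan, read 11.01, 11.07, 11.07 and 11.06 with E2, against 9.30, 9.31, 9.37 and 9.23 with vehicle, a rise of 1.75 ± 0.04. SPARC is also made by stromal and basal cells. The stromal markers averaged 5.35 to 5.48 in the E2 arrays and 5.29 to 5.33 in the vehicle arrays, and 9 of these 12 markers were dim. The 5 measured basal markers, all dim, averaged 5.35 to 5.57 with E2 and 5.21 to 5.35 with vehicle. The wider list of 13 basal and myoepithelial markers, which holds SPARC, averaged 6.78 to 6.83 with E2 and 6.82 to 6.87 with vehicle. Since the wider list holds SPARC itself, its direction cannot be set against that of the other lists. The samples were cultures of 1 cell line, and a part of other cells in the fall of SPARC was not tested.

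Interferon-stimulated genes were lower in 16 (32.7%) and higher in 7 (14.3%) of 49 cases. OAS1, which senses viral RNA, read 9.18, 9.10, 9.05 and 9.27 with E2, against 11.58, 11.64, 11.57 and 11.53 with vehicle. All E2 arrays lay more than 2 below all vehicle arrays. IRF1, a transcription factor of the pathway, read 7.75, 7.71, 7.61 and 7.64 with E2, against 8.24, 8.15, 8.30 and 8.34 with vehicle, and fell by 0.58 ± 0.04. ISG20, an exonuclease, read 8.83, 8.86, 8.74 and 8.71 with E2, against 8.21, 8.22, 8.29 and 8.27 with vehicle, and rose by 0.54 ± 0.07. MX2 rose by 0.43 ± 0.07. IFIT1 did not pass, at 0.45 ± 0.18 with both groups dim (limma adjusted p = 0.056). The marker list of immune and endothelial cells averaged 5.51 to 5.61 in the E2 arrays and 5.49 to 5.53 in the vehicle arrays, so the groups overlapped there. PTPRC (CD45), found on all blood leukocytes, was dim in both groups, and so was the monocyte marker CD14.

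The interferon-stimulated response element, GAAANNGAAA searched on both strands, was in 25 of the 40 promoters matched for that list (62.5%). It was in 2.97% of the 9563 promoters of all genes tested and 3.65% of the table. Among list genes it was in 8 of 14 that were lower, 4 of 5 that were higher and 13 of 21 that were not called. Thus the element was found in genes of every direction. Windows of TAP1, which fell, and of ISG20 and PLSCR1, which rose, are shown for the element in capitals, as 120 bases 5′ to 3′ on the gene's strand. Positions are chr6:32853769-32853888 (minus strand), chr15:88638896-88639015 (plus strand) and chr3:146544617-146544736 (minus strand), in GRCh38.p14 of RefSeq. In TAP1 the matches read on the opposite strand.
TAP1: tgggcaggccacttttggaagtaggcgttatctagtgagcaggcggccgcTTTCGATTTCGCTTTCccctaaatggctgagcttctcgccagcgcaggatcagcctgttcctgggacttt
ISG20: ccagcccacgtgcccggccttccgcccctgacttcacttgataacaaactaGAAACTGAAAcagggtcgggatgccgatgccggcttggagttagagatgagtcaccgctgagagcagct
PLSCR1: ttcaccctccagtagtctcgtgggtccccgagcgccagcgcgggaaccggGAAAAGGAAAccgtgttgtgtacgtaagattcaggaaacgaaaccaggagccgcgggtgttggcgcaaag

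The palindromic estrogen response element GGTCANNNTGACC was in 0 of the 287 matched promoters of genes at least 1.5-fold higher and 0 of the 319 of genes at least 1.5-fold lower. Over all genes tested it was in 2 of 9563 (0.0209%). Its single arm, GGTCA, was in 35.9% of promoters of the higher genes, 32% of the lower and 34.5% of all genes tested. These windows run 250 bases before and 50 after the start, and more distant elements were not searched.

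Antigen presentation genes were higher in 9 and lower in 8 of 43 cases. MICB, a stress ligand of natural killer cells, read 10.78, 10.77, 10.78 and 10.76 with E2, against 9.25, 9.18, 9.28 and 9.25 with vehicle. TAP1, which carries peptides into the endoplasmic reticulum, read 8.45, 8.40, 8.37 and 8.45 with E2, against 8.70, 8.75, 8.71 and 8.76 with vehicle. MICB rose by 1.53 ± 0.05 and TAP1 fell by 0.31 ± 0.03. Cytokines and their receptors were mostly dim, with 17 higher and 19 lower of 146. Without the dimmest genes 6 were higher, and 11 at an adjusted p of 0.01. IL17RB, a receptor of interleukin 25, read 12.99, 12.97, 12.90 and 12.91 with E2, against 11.17, 11.29, 11.25 and 11.27 with vehicle, on a probe set that may bind other transcripts. SOCS2, an inhibitor of growth hormone and cytokine signals, read 7.14, 6.57, 6.75 and 6.74 with E2, against 8.65, 8.67, 8.65 and 8.65 with vehicle. SOCS2 fell by 1.86 ± 0.09, and its relative CISH by 0.84 ± 0.06.

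Cell death genes moved little apart from a pair of opposite sign. PMAIP1 (NOXA), which promotes apoptosis, read 9.89, 9.81, 9.85 and 9.62 with E2, against 7.79, 7.78, 7.93 and 7.91 with vehicle. BIK, which also promotes it, read 10.68, 10.67, 10.50 and 10.62 with E2, against 12.05, 12.08, 12.11 and 12.04 with vehicle. PMAIP1 rose by 1.94 ± 0.07 and BIK fell by 1.45 ± 0.04. Of 19 genes of the BCL2 family 2 were higher and 6 lower. BCL2 rose by 0.13 ± 0.03 and MCL1 fell by 0.26 ± 0.03, on 2 of its 5 probe sets.

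Stress genes linked to p53 were higher in 7 and lower in 9 of 24 cases. MDM2, the ligase that degrades p53, read 9.16, 9.15, 9.22 and 9.06 with E2, against 7.08, 7.12, 7.08 and 7.23 with vehicle. It rose by 2.02 ± 0.06, or 4.05-fold, with 5 of 5 probe sets higher. GADD45A, a growth arrest protein, read 9.96, 10, 9.90 and 9.86 with E2, against 11.13, 11.09, 11.12 and 11 with vehicle. PLK2 fell by 1.09 ± 0.04 and SESN1 (sestrin 1) by 0.58 ± 0.04. CDKN1A (p21) did not pass, at -0.09 ± 0.04 (limma adjusted p = 0.067). Of 37 genes of quiescence and cell cycle control 14 were higher and 14 lower. CCNG2, a cyclin of resting cells, fell by 0.72 ± 0.03, and TXNIP, which restrains glucose uptake, by 0.44 ± 0.03. CCNE2 (cyclin E2) rose by 1.04 ± 0.04 and CCND1 (cyclin D1) by 0.72 ± 0.05.

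Chromatin genes were lower in 40 (35.7%) and higher in 20 (17.9%) of 112 cases, beside 24.2% and 21.5% of all genes. At an adjusted p of 0.01 the higher ones were 13. HELLS, a helicase of DNA methylation and replication, read 8.99, 9.01, 9.09 and 8.92 with E2, against 7.86, 7.76, 7.78 and 7.89 with vehicle. EZH2, the histone H3 methyltransferase of Polycomb, rose by 0.62 ± 0.04, and ASF1B, a histone chaperone, by 0.71 ± 0.05. SMYD3, a lysine methyltransferase, read 9.01, 9.0, 8.97 and 8.83 with E2, against 9.87, 9.88, 9.91 and 9.87 with vehicle. HDAC5, a class II deacetylase, fell by 0.80 ± 0.05. CBX6, a reader of Polycomb marks, fell by 0.71 ± 0.05.

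Whether the E2 effect differed between 24 h and 3 h was tested by the difference of the effects, each taken against vehicle of its own time. The difference was positive for 1973 genes (16.5%) and negative for 2127 (17.8%). An early rise that faded also gives a negative difference, and an early fall that faded a positive one. These are therefore not counts of late increases and decreases. The 30 largest increases at 24 h had 26 genes already higher at 3 h and 0 lower. In 24 of these 30 the effect at 24 h exceeded that at 3 h, and in RASGRP1 it was smaller. Of the 30 largest decreases 17 were lower and 1 was higher at 3 h, and 12 were not called. In 28 of them the effect at 24 h was more negative. The 24 h effects chose these genes, so those counts describe them and test nothing.

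Some genes named above changed between the times. AGR2 stood at -0.15 ± 0.03 at 3 h and 1.60 ± 0.03 at 24 h, and the difference was 1.75 ± 0.05. MET stood at -0.32 ± 0.04 at 3 h, a fall, and at 1.24 ± 0.04 at 24 h. IQGAP2 and GSTA3 were not called at 3 h, at 0.06 ± 0.04 and -0.04 ± 0.03. For HEY2 and PMAIP1 both times were alike in size, with differences of 0.02 ± 0.07 and 0.0 ± 0.10. The effect of SMAD7 was smaller at 24 h, by -1.82 ± 0.07, and so was that of MYC, by -1.33 ± 0.13. Of the endoplasmic reticulum list 23 of 41 differences were positive and 2 negative. In oxidative phosphorylation 24 of 69 were positive and 2 negative, and in nucleotide synthesis 17 and 2 of 27. Of 54 ribosomal protein genes 13 were negative and 0 positive.

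**Figure D4:**
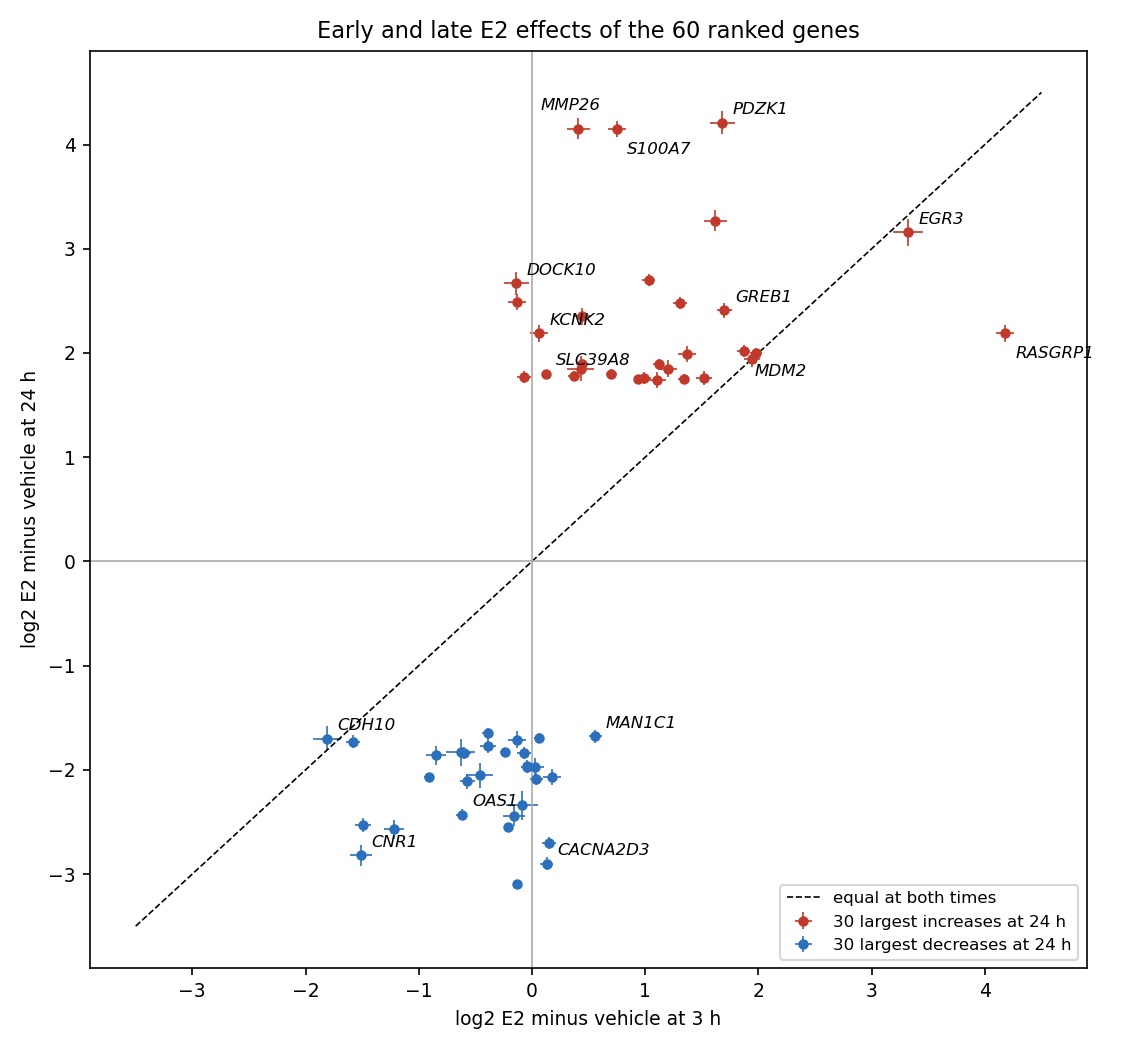
Log2 difference, E2 minus vehicle, at 3 h (horizontal) and 24 h (vertical) for the 30 largest increases and the 30 largest decreases at 24 h, with standard errors and the line of equal effects. Genes near the vertical axis, such as KCNK2 at 0.06 and CACNA2D3 at 0.13 at 3 h, changed little at 3 h.

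Vehicle arrays themselves differed from the untreated arrays at 0 h. The comparison of vehicle at 24 h with untreated cells called 1426 genes (11.9%), 903 higher and 523 lower in vehicle. Since E2 at 24 h against untreated cells shares the untreated arrays, only values are set side by side. SLC39A8 stood at 1.82 ± 0.03 for E2 minus untreated and 0.02 ± 0.03 for vehicle minus untreated. RAB31 stood at 1.0 ± 0.05 and -0.68 ± 0.05 in that order. GREB1, a co-regulator of the estrogen receptor, stood at 1.40 ± 0.07 and -1.0 ± 0.07. In RAB31 and GREB1 the vehicle arrays thus lay below the untreated ones, and in SLC39A8 close to them. SCGB1D2 stood at -0.16 ± 0.03 and 0.59 ± 0.03, and JUN at -0.10 ± 0.05 and 0.53 ± 0.05. Their vehicle arrays lay above the untreated ones, and most of their difference between E2 and vehicle was there. Among the 30 largest increases the vehicle arrays were called below untreated in 10 and above in 2. Among the 30 largest decreases they were called above in 20 and below in 0. Over all 11963 genes 903 were above and 523 below. The ranking used the same vehicle arrays, which by itself favours these directions. The counts thus describe the ranked genes and test nothing.

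**Figure D5:**
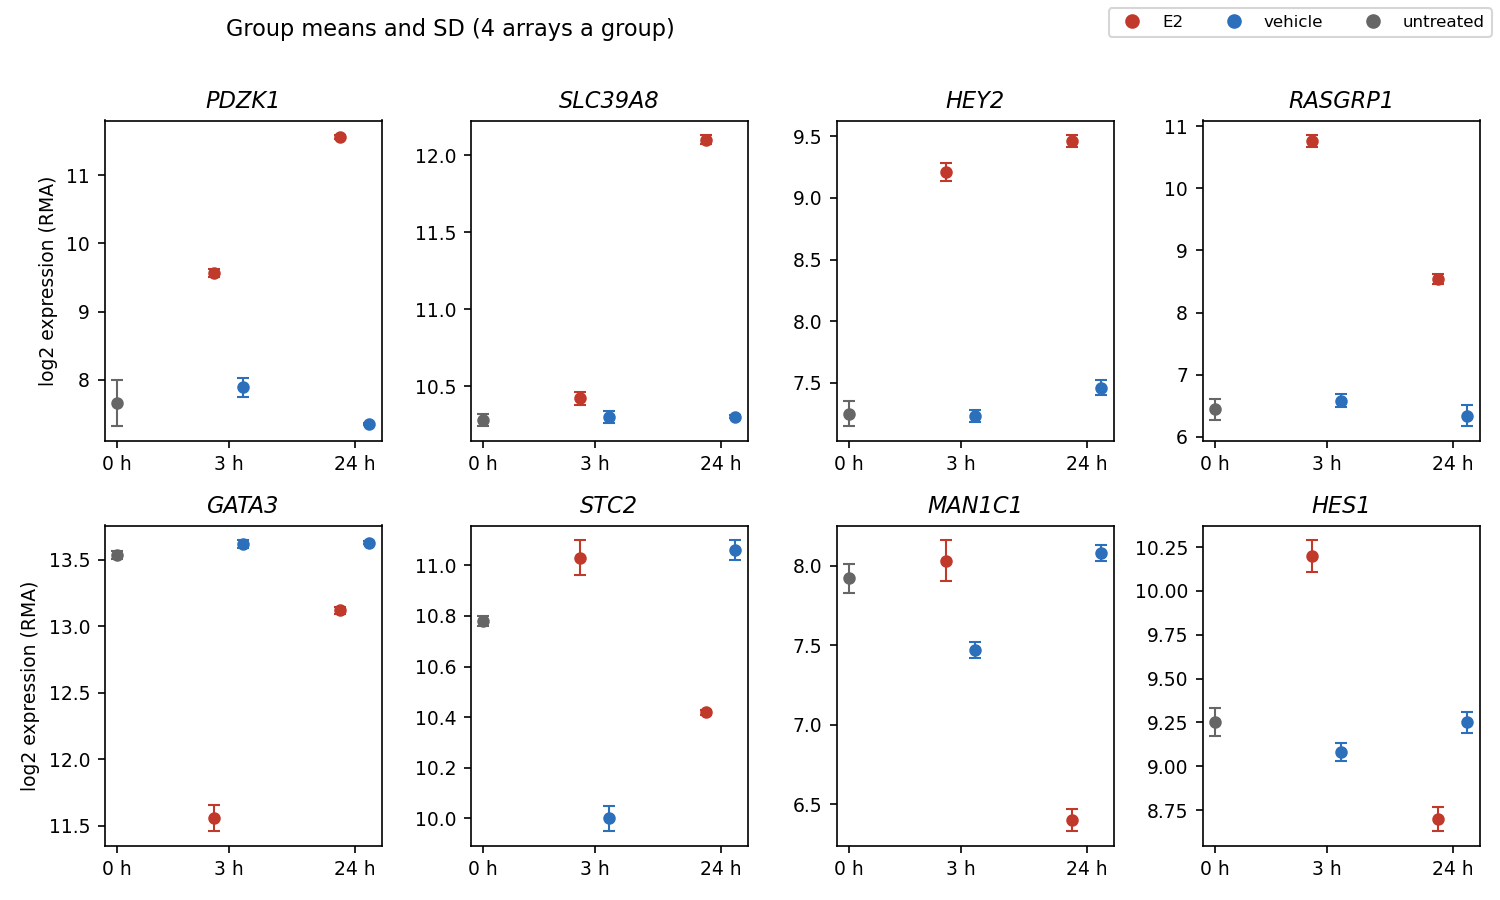
Mean log2 signal with SD (n = 4 arrays) of 8 genes at 0 h, 3 h and 24 h in E2 and vehicle. SLC39A8 separates late, HEY2 stays apart from 3 h on, RASGRP1 and GATA3 are farther apart at 3 h, and HES1, STC2 and MAN1C1 change sides.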

How the data were processed

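RNA of SUM44 cells was measured on 20 Affymetrix arrays, 4 in each of 5 groups. The deposited values are log2 expression, made by the authors by robust multi-array averaging (RMA) with affy, per the submitters' processing notes, whose versions are not given in the sources used here. Of 22277 probe sets 62 were controls. The platform annotation gave 19064 probe sets 1 gene symbol, 1043 several and 2108 none. Of the probe sets with 1 symbol 19052 matched a RefSeq gene ID, and 0 symbols changed. The probe set with the highest mean was used for the 4310 genes with several, which left 11963 genes. Genes sharing sequence can cross-hybridise, and probe sets marked by the array's maker for this are named as such.

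Group means of all 20 arrays were fitted together in limma 3.58.1 (R 4.3.3) with no block, and p-values were adjusted by Benjamini-Hochberg over all 11963 genes. The threshold was 0.05, the fold limit 1.5. Arrays have no read depth, and their number limits the precision. The fit was checked on simulated data. Tests were run under 18 alternatives of arrays, block, scaling, filter, probe set, variance, weights and threshold. Replicate letters were checked for pairing by the correlation of deviations from the group means.

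The members and gene lists were chosen with earlier results of these data known. Genes named are the 30 largest changes in each direction without overlap between the groups, up to 4 members in each direction of each list by smallest p, any member of a list of at most 15, up to 3 uncalled members, and ESR1, PGR, GREB1 and TFF1. Promoters are RefSeq's, of GRCh38.p14, and 9563 of the genes tested matched by symbol. The titles and the treatment field differ for the E2 24 h arrays, and the titles were followed. Sources disagree on the share of serum in the medium, which is not stated here. The counts of 1 gene family are not reported here.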

Additional observations from a re-analysis of the deposited data

Results flagged for a closer look

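A sample stood apart from the other 3 of its group in 8 of the 120 groups examined, those of the 30 largest increases and the 30 largest decreases with E2 and vehicle at 24 h. Chance gives about 1 in 20. S100A7 read 11.82 in E2 replicate B, beside 11.69 in the nearest arrays. EGR3, an early growth response factor, read 6.82 in E2 replicate D, and its nearest arrays read 7.43 and 7.53. In vehicle replicate D EGR3 read 4.07, with 4.18 and 4.19 nearest. S100A8 read 9.5 in vehicle replicate A, with 9.66 and 9.69 nearest. TCN1 read 8.4 in E2 replicate A, with 8.25 and 8.27 nearest, and 6.42 in vehicle replicate D, with 6.54 and 6.56 nearest. SDC2 read 11.01 in E2 replicate A, with 11.06 and 11.07 nearest. TMC5, a membrane protein of the TMC family, read 9.76 in vehicle replicate D, with 9.64 nearest.

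In 3 genes the E2 effect was opposite at 24 h and 3 h, called at both times with a size of at least 0.5, and the difference itself was tested by limma (24 h minus 3 h). HES1 stood at -0.55 at 24 h and 1.12 at 3 h, a difference of -1.67 (adjusted p = 5.3e-13). MAN1C1 stood at -1.68 and 0.56, a difference of -2.24 (adjusted p = 7.9e-14). STC2 (stanniocalcin 2), a secreted hormone, stood at -0.64 and 1.03, a difference of -1.67 (adjusted p = 3.9e-15). The 3 h effect of STC2 was taken against vehicle arrays at 10 ± 0.05, below the untreated arrays at 10.78 ± 0.02.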

How the results depend on the processing

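Of 452 called genes that the naming rule covers, 423 could be tested under all 18 alternatives, and 395 of these kept direction and call. The filter on dim genes removed 29, of which 19 kept both under the other alternatives. In 6 genes the direction changed under some alternative. With the most variable probe set in place of the brightest, MYB stood at -0.05, MYCL at -0.01, ATP5MC2 at 0.13, RFC5 at 0.80, COL1A1 at -0.19 and FBN1 at -0.07. With the mean of all probe sets, ATP5MC2 stood at 0.02, RFC5 at 0.44 and COL1A1 at -0.01. These probe sets differ in the transcripts they bind, and the cause was not tested. At an adjusted p of 0.01 the vehicle at 24 h against untreated cells gave 528 genes higher and 256 lower, in place of 903 and 523. The other counts over all genes stayed within 1.5 times. For E2 against vehicle at 24 h, leaving out 1 array at a time gave 2334 to 2551 genes higher and 2662 to 2907 lower, and past 1.5-fold 350 to 372 and 379 to 421. For 24 h minus 3 h effects these ranges were 1891 to 1962 and 1989 to 2154, and past 1.5-fold 344 to 378 and 400 to 440. For vehicle against untreated cells they were 725 to 936 and 407 to 586, and past 1.5-fold 25 to 34 and 7 to 11. For E2 at 24 h against untreated cells they were 2166 to 2289 and 2462 to 2684, and past 1.5-fold 397 to 415 and 329 to 356.

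The median of all genes for E2 minus vehicle at 24 h was 0.017, 0.042 with arrays centred on their median and 0.006 under cyclic loess. Centring gave 3042 genes higher and 2583 lower, and cyclic loess 2706 and 2700. Arrays of the same letter showed no pairing, with correlations of deviations of -0.152, -0.025, -0.056 and -0.193. The replicate block gave 2592 genes higher and 2887 lower. The 3' minus 5' signal of ACTB was 0.384 ± 0.014 with E2 and 0.397 ± 0.032 with vehicle, and that of GAPDH -0.148 ± 0.013 and -0.117 ± 0.031 (SD, n = 4 each). ACTB stood at 0.466 ± 0.01 in untreated arrays, 0.314 ± 0.027 in vehicle at 3 h and 0.384 ± 0.033 in E2 at 3 h. GAPDH stood at -0.124 ± 0.014, -0.116 ± 0.008 and -0.138 ± 0.011 in that order. For ACTB the untreated arrays did not overlap vehicle at 24 h, nor the E2 arrays at 3 h their vehicle. A part of this in the comparisons with those groups was not tested. Signals under 6.11 lie near background, so small changes there were not resolvable.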

Other observations

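Further genes with large changes fall outside the families described. ATRNL1 (attractin-like 1), a membrane protein, read 8.81, 8.70, 8.67 and 8.59 with E2, against 6.21, 6.10, 6.11 and 6.41 with vehicle. It rose by 2.49 ± 0.08, and FRK, a kinase related to SRC, rose by 1.85 ± 0.08. PADI2, which converts arginine to citrulline in proteins, rose by 1.74 ± 0.08, and OGFRL1 by 1.76 ± 0.06. FCGR2B, an inhibitory receptor for immunoglobulin G, was dim in vehicle at 5.74, 5.60, 5.67 and 5.79 and read 7.71, 7.66, 7.86 and 7.55 with E2. OLFML3, a secreted olfactomedin-like protein, was dim in vehicle as well, at 5.81, 5.96, 5.91 and 6.04, and read 8.24, 8.35, 8.32 and 8.22 with E2.

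STK32B, a kinase, fell by 2.09 ± 0.06, and SIGLEC15, a sialic acid binding receptor, fell by 2.07 ± 0.04. HOPX, a small homeodomain protein, read 6.37, 6.69, 6.75 and 6.50 with E2, against 8.32, 8.44, 8.47 and 8.44 with vehicle, with no overlap. TMEM45A fell by 1.97 ± 0.08, and NLGN4X (neuroligin 4), an adhesion protein of synapses, fell by 1.77 ± 0.07. ALB (albumin) had 3 probe sets that disagreed, 1 called higher and 1 lower, and its E2 arrays were dim on the brightest.

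Of 31 genes of the amino acid response 12 were higher and 7 lower. PCK2, the mitochondrial enzyme that makes phosphoenolpyruvate, rose by 0.92 ± 0.04, and DDIT4, an inhibitor of mTORC1, fell by 0.85 ± 0.05. Of 16 aminoacyl-tRNA synthetases 6 were higher and 3 lower. Among 73 chaperones the counts were 24 and 26.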
